A study of Drosophila melanogaster with 9 samples.

Results

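Type II neuroblasts are the neural stem cells of the *Drosophila* larval brain that make intermediate neural progenitors (INPs), and *tll*, *pnt*, *btd* and *Sp1* encode transcription factors used to define them. The values below are the rows of these 4 genes in a table of RNA sequencing counts for 14560 genes. They were taken by name, and all 4 were among the 10799 genes with enough counts to be tested. Its 9 libraries were made from larval brains null for *brat* in which Insensible (Insb), a nuclear inhibitor of Notch effectors, was overexpressed for 0, 9 or 18 hr, with 3 libraries per time. The study used this time course to look for genes that type II neuroblasts switch off when Insb pushes them towards INP fate.

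The larvae of every group were *brat11/Df(2L)Exel8040* and carried *2xTub-Gal80ts*, *Wor-Gal4* and *UAS-insb*. All 3 groups therefore lack Brat function and carry the transgene. The methods of the study list *Wor-Gal4* as the driver, a Gal4 line of neuroblasts, while its results describe a form of this driver that is silenced in cells expressing *ase*. Larvae of the 0 hr group stayed at 25 °C, and those of the 9 and 18 hr groups were moved to 33 °C for the last 9 or 18 hr, with 5 days of culture in all. Time of overexpression and time at 33 °C therefore cannot be told apart in these samples. Each library was made from pooled whole brains.

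In type II neuroblasts, Tailless (Tll), an orphan nuclear receptor that mostly represses transcription, and the ETS factor Pointed (Pnt) act in cells that lack the proneural factor Asense. The PntP1 isoform of Pnt keeps *ase* off in these cells. The zinc finger factor Buttonhead (Btd) is needed for their daughters to become INPs, and Sp1, a close relative of Btd from the same gene family, is used as a marker of type II lineages. As a daughter cell matures, it turns on *earmuff* (*erm*), which restricts its potential, and later *ase*. *brat*-null brains fill with type II neuroblasts because daughters that should mature revert.

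Libraries held 26533845 to 37109356 counts, so each of the 4 genes had at least 1921 counts in every library. The *insb* gene (listed under its older name CG6520) averaged 34.1 CPM at 0 hr, 381 CPM at 9 hr and 337 CPM at 18 hr. CPM here are counts scaled to library size, after scaling libraries to each other with the trimmed mean of M values (TMM). Replicates 2 and 3 of the 9 hr group were nearly identical and count as 1 sample in means and SDs, so n = 2 there. The labels give the cells as neural stem cells, but the libraries are of whole brains. The 10 neuroblast markers summed to 3465 to 3903 CPM at 0 hr, 3895 to 4137 CPM at 9 hr and 3312 to 4863 CPM at 18 hr. These sums include *cas*, a temporal factor of neuroblasts, which rose by 1.63 at 9 hr (adjusted p = 0.00300) and by 1.80 at 18 hr (adjusted p = 0.00463) on the log2 scale. Without *cas*, a choice made after its values were seen, the other 9 markers summed to 3102 to 3465 CPM at 0 hr, 2651 to 2793 CPM at 9 hr and 2285 to 3174 CPM at 18 hr. Every 9 hr library was then below every 0 hr library, and the 18 hr libraries overlapped both groups. The median log2 fold change of the 10 markers was -0.23 at 9 hr and 0.05 at 18 hr, and *ase* was the other marker called higher, at 18 hr. The 10 neuron markers summed to 1447 to 1621, 1519 to 1648 and 1495 to 1703 CPM at these times, and the 9 glia markers to 850.6 to 1027, 774.8 to 855.3 and 831.3 to 1021 CPM. None of these markers was at 0 in all libraries. The counts of the 4 genes thus come from mixed tissue, in which fewer cells of a type and less RNA per cell cannot be told apart.

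*tll* fell at both times, by 2.06-fold at 9 hr and 2.14-fold at 18 hr, and was the only one of the 4 genes to pass both thresholds of a call. Its counts were 5822, 4760 and 5291 in the 0 hr libraries, 3020, 2647 and 1921 in the 9 hr libraries and 2331, 2513 and 2718 in the 18 hr libraries. In CPM these are 169, 161 and 147 at 0 hr, 88.0, 71.8 and 71.9 at 9 hr and 64.9, 75.3 and 83.2 at 18 hr. Every library with Insb overexpression lay below every 0 hr library, and the 9 and 18 hr ranges overlapped. Such downward separation from 0 hr was found in 18.9% of all genes at 9 hr and in 9.53% at 18 hr. On the log2 scale *tll* differed by -1.04 at 9 hr against 0 hr (95% interval -1.30 to -0.78), with a Benjamini-Hochberg adjusted p of 0.00268 from edgeR's quasi-likelihood test. At 18 hr against 0 hr it was -1.10 (95% interval -1.36 to -0.84, adjusted p = 0.00463). A call required an adjusted p under 0.05 and a change of at least 1.5-fold. Of all genes tested, 1.19% were called lower at 9 hr and 0.278% at 18 hr, so that 1 of the 4 genes was called in comparisons that called 3.69% and 0.833% of genes in either direction. The study had already reported *tll* as its most downregulated gene in these same data, so this count is not separate support. In the fit used here *tll* was not the lowest gene. Of all genes tested, 2.32% had a lower log2 fold change at 9 hr and 0.889% at 18 hr, whether called or not. The long non-coding RNA *CR31386*, for example, had -1.14 (adjusted p = 0.00787) and -1.12 (adjusted p = 0.0242) by the same test. Between 18 and 9 hr the log2 fold change of *tll* was -0.05 (95% interval -0.31 to 0.21, adjusted p = 0.883). With the nearly identical 9 hr libraries summed into 1, the *tll* values were -0.99 (adjusted p = 0.0172) at 9 hr and -1.10 (adjusted p = 0.0157) at 18 hr. The call ended when the null hypothesis itself was a 1.5-fold change, where the adjusted p were 0.0845 and 0.111. *tll* is also known for its role in the optic lobe. The 7 markers of optic lobe neuroepithelium summed to 650.8 to 727 CPM at 0 hr, 574.5 to 644.8 CPM at 9 hr and 699.1 to 752.1 CPM at 18 hr, with none called at either time. The 14 heat response genes summed to 5236 to 12480 CPM, 7290 to 8943 CPM and 5015 to 10190 CPM, with *Hsp23* called higher at 9 hr. The 9 hr sum of the optic lobe markers was below that of 0 hr in every library and the 18 hr sum was not. The same held for the neuroblast markers without *cas*. The part of this tissue, of neuroblast content or of heat in the fall of *tll* was not tested.

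**Figure D1:**
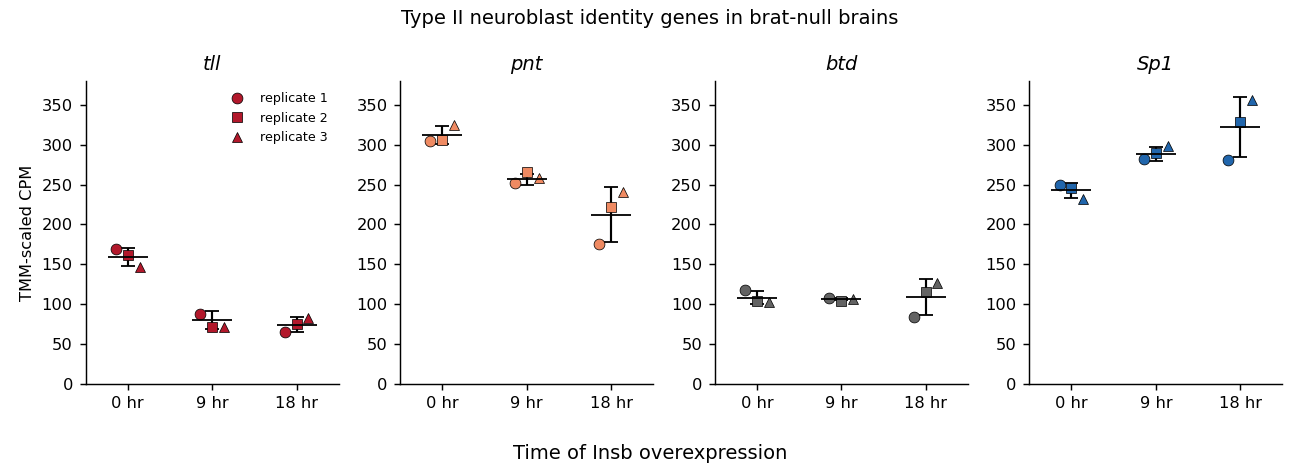
TMM-scaled CPM of *tll*, *pnt*, *btd* and *Sp1* in each library (points, shaped by replicate) against time of Insb overexpression, with the mean (wide line) and SD (bars) of each group, n = 3, 2 and 3 at 0, 9 and 18 hr. *tll* is at 147 to 169 CPM in the 0 hr libraries and at 64.9 to 88.0 CPM in the other libraries, while the *btd* groups overlap.

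*pnt* stood lower in every later library, and its fitted group change was less than the 1.5-fold a call needs. Its CPM were 305, 307 and 325 at 0 hr, 252, 265 and 258 at 9 hr and 175, 222 and 241 at 18 hr. No 2 of the 3 groups overlapped, and the levels followed the order of the times. Complete separation of this kind in the downward direction was common, at 18.9% of all genes for 9 hr against 0 hr, 9.53% for 18 hr against 0 hr and 10.6% for 18 hr against 9 hr. The 9 hr against 0 hr log2 fold change of *pnt* was -0.27 (95% interval -0.51 to -0.03) and missed the p threshold (adjusted p = 0.128, edgeR's quasi-likelihood test). Summing the nearly identical pair widened this interval to -0.57 to 0.02, which takes in 0. At 18 hr against 0 hr *pnt* differed by -0.56 on the log2 scale (95% interval -0.79 to -0.32), a 1.47-fold lower level. Its adjusted p of 0.0436 passed the p threshold, as did 0.75% of genes in the downward direction, but the fold threshold was missed. The log2 fold change was past 1.5-fold without 18 hr replicate 2 (-0.59) or 3 (-0.65), where the adjusted p were 0.0789 and 0.0557. The p from all 9 libraries was close to the threshold: it stayed under 0.05 in 1 of the 9 fits that left out a single library, the one without 18 hr replicate 1 (adjusted p = 0.0137), and was 0.091 with the nearly identical pair summed. The 18 hr level differed from that of 9 hr by -0.28 on the log2 scale (adjusted p = 0.403). Counts per gene do not separate PntP1 from the other isoforms of *pnt*, which the annotation reads from 3 start sites as 4 transcripts.

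The paralogs *btd* and *Sp1* showed different values from each other. *btd* had 118, 104 and 102 CPM at 0 hr, 108, 104 and 106 CPM at 9 hr and 83.7, 116 and 127 CPM at 18 hr. Each later group overlapped the 0 hr group, and the widest spread was among the 18 hr libraries, with a coefficient of variation of 20.6% against 7.61% at 0 hr. The log2 fold change of *btd* was -0.03 at 9 hr against 0 hr (adjusted p = 0.922) and 0.01 at 18 hr against 0 hr (adjusted p = 0.985). The 95% intervals bound the change to between 0.79-fold and 1.22-fold at 9 hr and between 0.811-fold and 1.25-fold at 18 hr, so a change of the size of *tll* lay outside them.

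*Sp1* had 250, 246 and 232 CPM at 0 hr, 282, 289.8 and 299 CPM at 9 hr and 281, 328 and 356 CPM at 18 hr. All later libraries were above all 0 hr libraries, and the 9 and 18 hr groups overlapped. Upward separation was found in 21.1% of all genes at 9 hr and in 11.4% at 18 hr. *Sp1* differed by 0.26 on the log2 scale at 9 hr against 0 hr (95% interval 0.07 to 0.45, adjusted p = 0.0795, edgeR's quasi-likelihood test) and 0.41 at 18 hr against 0 hr (95% interval 0.22 to 0.60, adjusted p = 0.0529). Neither passed the p threshold, and the 18 hr level was 1.33-fold that of 0 hr. The difference at 18 hr against 9 hr was 0.15 on the log2 scale (95% interval -0.04 to 0.34, adjusted p = 0.545). None of the 4 genes was called between these times, where 0.00926% of all genes were.

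**Figure D2:**
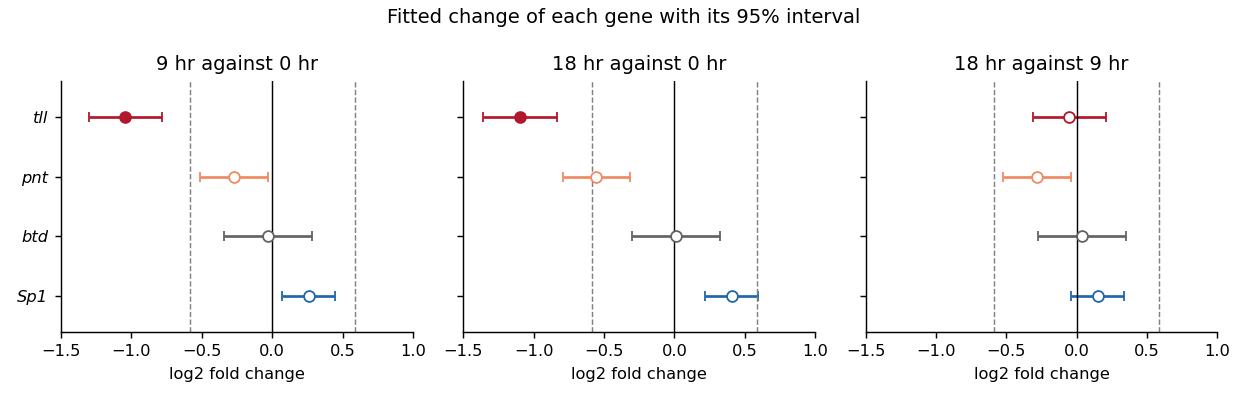
Fitted log2 fold change of each gene (x axis) with its 95% interval for 3 comparisons, each with the later time over the earlier. Filled points passed both thresholds and dashed lines mark a 1.5-fold change: *tll* is at -1.04 and -1.10 against 0 hr, and against 0 hr *pnt* and *Sp1* lie on opposite sides of 0. The fit keeps all 9 libraries, and the *pnt* interval at 9 hr, -0.51 to -0.03 here, became -0.57 to 0.02 with the nearly identical 9 hr pair summed.

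Of the 18 hr libraries, replicate 1 was the lowest in all 4 genes. Its log2 difference from the other 18 hr libraries was -0.29 in *tll*, -0.40 in *pnt*, -0.53 in *btd* and -0.28 in *Sp1*. The same library had the lowest sum of neuroblast markers, 3312 CPM against 4832 and 4863 CPM in the other 18 hr libraries. Its 6 fat body markers summed to 830.9 CPM, against 29.26 and 46.33 CPM, and its 8 muscle markers to 120.8 CPM, against 36.03 to 56.34 CPM. Fat body markers were also high in 9 hr replicates 2 and 3, at 307.6 and 313.6 CPM against 20.53 CPM in replicate 1, and in 0 hr replicate 1, at 152 CPM against 47.41 and 23.23 CPM in the other 0 hr libraries. The muscle markers of 0 hr replicate 1 summed to 86.1 CPM, against 70.67 and 47.11 CPM. The part of these other tissues in the 4 genes was not tested. Without 18 hr replicate 1, the log2 fold changes at 18 hr against 0 hr were -1.01 for *tll* (adjusted p = 0.00919), -0.43 for *pnt* (adjusted p = 0.0137), 0.17 for *btd* (adjusted p = 0.248) and 0.49 for *Sp1* (adjusted p = 0.0103). At 9 hr against 0 hr, where that library enters only the estimate of spread, the adjusted p was 0.0139 for *pnt* and 0.0188 for *Sp1*. In these fits *pnt* and *Sp1* passed the p threshold and missed the fold threshold at both times. Of the 9 fits leaving out a library, only this 1 had either gene under that threshold, at either time. With the nearly identical 9 hr pair summed, *Sp1* had adjusted p of 0.185 at 9 hr and 0.105 at 18 hr.

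Ratios of counts within a library do not depend on how libraries are scaled to each other, and they show the 4 genes parting. The ratio of *Sp1* to *tll* was 1.48 to 1.58 in 0 hr libraries, 3.21 to 4.16 at 9 hr and 4.28 to 4.36 at 18 hr. 18 hr replicate 1, low in each gene, was within that narrow 18 hr range. The ratio of *Sp1* to *pnt* was 0.715 to 0.819 at 0 hr, 1.09 to 1.16 at 9 hr and 1.48 to 1.61 at 18 hr, with no overlap between the 3 times. The ratio of *btd* to *tll* was 0.647 to 0.695 at 0 hr, 1.22 to 1.48 at 9 hr and 1.29 to 1.54 at 18 hr, with the 9 and 18 hr ranges overlapping. *btd* also gained on *pnt*, with ratios of 0.315 to 0.385, 0.393 to 0.426 and 0.479 to 0.527 at the 3 times. *Sp1* over *btd*, the ratio of the paralogs, was 2.13 to 2.36 at 0 hr, 2.62 to 2.82 at 9 hr and 2.81 to 3.36 at 18 hr, with a small overlap between 9 and 18 hr. For *pnt* over *tll* it was 1.80 to 2.21 at 0 hr, 2.87 to 3.70 at 9 hr and 2.70 to 2.95 at 18 hr. These are ratios of counts, so a ratio of 1 is not equal expression where lengths differ. Per kilobase of exons, *btd* over *tll* was 0.434 to 0.465 at 0 hr, 0.818 to 0.989 at 9 hr and 0.864 to 1.03 at 18 hr, and *Sp1* over *pnt* was 0.995 to 1.14, 1.52 to 1.61 and 2.06 to 2.24. Each ratio has the gene of the higher fold change on top, so that their common direction was set by this choice. The ratios share the same 4 genes and are not independent. All ratios are given as ranges, with no test, and the share of other gene pairs that separate in this way was not computed.

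**Figure D3:**
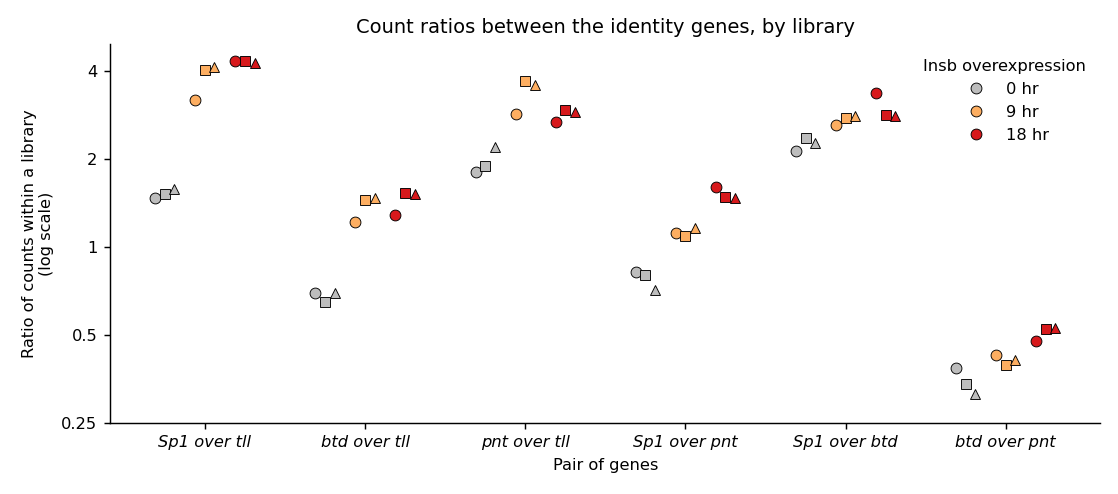
Ratio of counts of each pair of the 4 genes within each library, on a log axis, coloured by time of Insb overexpression and shaped by replicate (circle 1, square 2, triangle 3). Each pair has the gene of the higher fold change on top, which sets the common direction. In all 6 pairs the 0 hr libraries lie below every 9 and 18 hr library, with *Sp1* over *tll* at 1.48 to 1.58 at 0 hr and 4.28 to 4.36 at 18 hr.

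Levels can be compared between genes only per length, here as CPM per kilobase of annotated exons (RPKM). At 0 hr *tll* had 81.0 ± 5.66 RPKM, *Sp1* 55.2 ± 2.12, *pnt* 51.0 ± 1.80 and *btd* 36.8 ± 2.80 (SD, n = 3). In each 0 hr library *tll* was above *Sp1* and *pnt* above *btd*. *Sp1* was above *pnt* in replicates 1 and 2 but not in replicate 3, at 52.8 against 53.09 RPKM. At 9 hr *Sp1* was highest at 65.5 ± 1.998 RPKM, followed by *pnt* at 42.0 ± 1.10, *tll* at 40.7 ± 5.80 and *btd* at 36.3 ± 0.536 (SD, n = 2). Of these, *pnt* and *tll* changed places between libraries. At 18 hr *Sp1* had 73.2 ± 8.57 RPKM, and *tll*, *btd* and *pnt* lay close together at 37.9 ± 4.68, 37.08 ± 7.65 and 34.7 ± 5.55 (SD, n = 3). *tll* made up 34.7% to 37.0% of the summed RPKM of the 4 genes in 0 hr libraries, 20.01% to 24.0% at 9 hr and 20.3% to 21.4% at 18 hr. *Sp1* took 24.4% to 25.0%, 34.3% to 37.2% and 39.3% to 41.5%. Among the 10685 tested genes with an annotated length, *tll* stood at percentile 92.0 at 0 hr, 80.8 at 9 hr and 78.9 at 18 hr. *Sp1* stood at percentiles 86.8, 89.5 and 91.0. The place of *pnt* and the shares of *tll* and *Sp1* depend on the length used, since the exons of *pnt* sum to 6119 bases but its transcripts have 2805 to 4074. Over its shortest transcript *pnt* had 111 RPKM at 0 hr, above *tll*, and 91.6 at 9 hr, above *Sp1*. *tll* and *btd* each have 1 annotated transcript, and *Sp1* ranked above *tll* and *btd* at 9 and 18 hr with either its shortest or its longest.

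**Figure D4:**
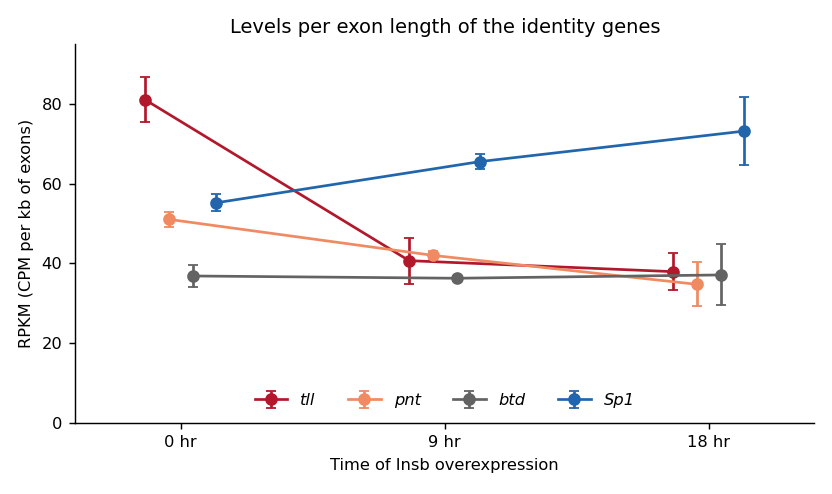
Mean RPKM (CPM per kilobase of annotated exons) of the 4 genes against time of Insb overexpression, with SD bars, n = 3, 2 and 3 at 0, 9 and 18 hr. The *tll* mean is highest at 0 hr (81.0) and close to those of *btd* and *pnt* at 18 hr, where *Sp1* is highest (73.2).

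*tll* lies on the plus strand of chromosome 3R of dm6 (30852315 to 30854400) and *pnt* on the minus strand of the same arm (23290231 to 23346167), within an annotated span of 55937 bases. *btd* (9694186 to 9697558) and *Sp1* (9729648 to 9756369) are neighbours on the plus strand of chromosome X, 32.1 kb apart. Only 1 annotated gene lies between them, the long non-coding RNA gene *lncRNA:CR43498*, which had 1 to 10 counts per library and was not tested. The exons of the 4 genes overlap no exon of another annotated gene. Where the nearest genes were tested, none was called against 0 hr. *CG15544*, 10281 bases from *tll*, had log2 fold changes of -0.74 at 9 hr (adjusted p = 0.281) and 0.03 at 18 hr, with 2.45 to 7.65 CPM at 0 hr. *bb8*, 42 bases from *pnt*, had 11 to 31 counts per library and log2 fold changes of 0.40 at 9 hr (adjusted p = 0.356) and -0.67 at 18 hr (adjusted p = 0.247), with each 18 hr library below all 0 hr libraries. *ATPsynCF6*, a subunit of the mitochondrial ATP synthase beyond the far end of *pnt*, had -0.47 (adjusted p = 0.195) and -0.05. *CG1354*, on the other side of *Sp1* from *btd*, had 0.10 and 0.07.

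The families and pathways of the 4 genes give a frame for these changes. Of the other nuclear receptor genes, 19 of 20 were tested and 1 was called, lower at both times: *eg*, a relative of *kni*, with 4.79 to 5.78 CPM at 0 hr, 3.37 to 3.50 CPM at 9 hr and 2.98 to 3.27 CPM at 18 hr. Of all genes, 1.19% were called lower at 9 hr and 0.278% at 18 hr. The log2 fold changes of *eg* were -0.66 (adjusted p = 0.0205) and -0.78 (adjusted p = 0.0339). Both calls were weak, since with the nearly identical pair summed the adjusted p were 0.0709 and 0.075, and in fits leaving out 1 of 9 libraries *eg* was called in 4 at 9 hr and in none at 18 hr. *dsf*, which encodes a close relative of Tll, had log2 values of 0.00 and -0.01, with a mean of only 1.974 CPM at 0 hr. *svp*, also a neuroblast marker here, had 150 to 162.6 CPM at 0 hr. Its later libraries were all lower, at 100.9 to 105.5 CPM at 9 hr and 68.86 to 116.6 CPM at 18 hr. Its log2 fold changes of -0.6045 (adjusted p = 0.05099) and -0.6899 (adjusted p = 0.08097) passed the fold threshold and missed the p threshold. *usp* had 0.2049 at 9 hr (adjusted p = 0.04325), past the p threshold and short of the fold threshold. The share of all genes higher by p alone is not given here. The family median was -0.12 at 9 hr and -0.06 at 18 hr, against 0.00 and 0.01 over all genes tested.

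Of 7 other ETS factor genes, *Ets21C*, a stress-induced family member, was called higher at both times, where 2.49% of all genes were at 9 hr and 0.556% at 18 hr. It had 9.69 to 11.04 CPM at 0 hr, 17.8 to 20.8 CPM at 9 hr and 14.1 to 17.1 CPM at 18 hr. Its log2 fold changes were 0.91 (adjusted p = 0.00300) and 0.60 (adjusted p = 0.0325). The 9 hr call held in each fit leaving out a library, and the 18 hr call in 2 of 9, those without 9 hr replicate 1 and without 18 hr replicate 1. With the nearly identical pair summed, its 18 hr adjusted p was 0.0705. *aop*, which encodes the repressor Yan that competes with Pnt, had -0.43 (adjusted p = 0.0725) and -0.18 (adjusted p = 0.55).

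The EGF receptor and MAP kinase pathway, which activates Pnt proteins in many tissues, had no gene called among 26 tested at either time. By p alone, 4 were lower at 9 hr: *Ras85D*, the Ras GTPase (-0.24), *rl*, the MAP kinase (-0.26), *aos*, a secreted inhibitor of the receptor (-0.32), and *Cbl*, which marks the receptor for removal (-0.36), with adjusted p of 0.0163 to 0.0413. Over all genes, 5.22% were lower by this rule. None of the 26 passed the p threshold at 18 hr. *edl*, which encodes a regulator of Pnt and Yan, had -0.29 at both times (adjusted p = 0.073 and 0.145). The pathway median was -0.17 at 9 hr and -0.07 at 18 hr. None of the 7 tested genes of the other Sp and KLF zinc finger factors was called at either time, with family medians of -0.02 and 0.07. *Spps*, the remaining Sp factor in the set, had -0.02 and 0.07.

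Self-renewal genes and Notch targets moved in both directions. Of 14 tested, 1 was called lower and 1 higher at 9 hr, and 1 lower and 3 higher at 18 hr, all members of the *E(spl)* family of repressors that Notch turns on. Of all genes, 1.19% were called lower and 2.49% higher at 9 hr, and 0.278% lower and 0.556% higher at 18 hr. *E(spl)mgamma-HLH* had 47.8 to 54.6 CPM at 0 hr, 78.0 to 81.9 CPM at 9 hr and 81.9 to 92.7 CPM at 18 hr, and rose by 0.65 (adjusted p = 0.00218) and 0.79 (adjusted p = 0.00239) on the log2 scale. *E(spl)mbeta-HLH* (0.81) and *E(spl)m8-HLH* (0.75) rose at 18 hr, with adjusted p of 0.00811 and 0.0241. The call of *E(spl)m8-HLH* held in 4 of the 9 fits leaving out a library, ending without any of the 0 hr libraries and without 9 hr replicate 2 or 3. *E(spl)m5-HLH*, at 2.42 to 5.81 CPM over all libraries, fell by 1.03 at 9 hr (adjusted p = 0.0102) and by 0.89 at 18 hr (adjusted p = 0.0469). Its 18 hr call held in 1 of the 9 fits leaving out a library, that without 18 hr replicate 1. *dpn*, a repressor of the same class that marks neuroblasts, had 0.04 and 0.13 (adjusted p = 0.839 and 0.593). *klu*, another neuroblast maintenance factor, had -0.48 and -0.41, and *Myc* -0.48 and -0.63, with adjusted p above 0.05 at both times. The list median was -0.13 at 9 hr and 0.13 at 18 hr.

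INP genes had differences in both directions, and those past both thresholds were higher. Of 12 tested, 2 rose at 9 hr and 5 at 18 hr, and none was called lower, where 2.49% and 0.556% of all genes were called higher. The study had already named *erm*, *D*, *ase* and *ham* as upregulated in these same data, so these counts cannot be read as enrichment over that share. *erm*, which restricts the potential of new INPs, had 89.2, 90.9 and 89.3 CPM at 0 hr, 265, 284 and 292 CPM at 9 hr and 197, 267 and 289 CPM at 18 hr. It rose by 1.64 at 9 hr (adjusted p = 7.54e-04) and by 1.49 at 18 hr (adjusted p = 0.00245) on the log2 scale. *ham*, a zinc finger factor of INP lineages, rose by 0.70 and 0.93. *ase* rose at 18 hr, with 73.1 to 90.9 CPM at 0 hr and 159.9 to 176 CPM at 18 hr (1.05, adjusted p = 0.00239), and had 0.45 at 9 hr. At 18 hr *D*, a Sox factor of INPs (0.72), and *opa* (0.63) also rose, and the *opa* call ended without 18 hr replicate 3. By p alone, 3 were lower and 3 higher at 9 hr, and 1 was lower and 5 higher at 18 hr. Over all genes, 5.22% were lower by this rule at 9 hr and 0.75% at 18 hr, and the shares higher by it are not given here. The lower ones at 9 hr were *grh* (-0.51), *scro* (-0.51) and *slp1* (-0.46), with adjusted p of 0.0218 to 0.0355, and *scro* was the one at 18 hr (-0.55, adjusted p = 0.0458). The list median was -0.11 at 9 hr and 0.12 at 18 hr. The list shares *ase* and *grh* with the neuroblast markers.

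**Figure D5:**
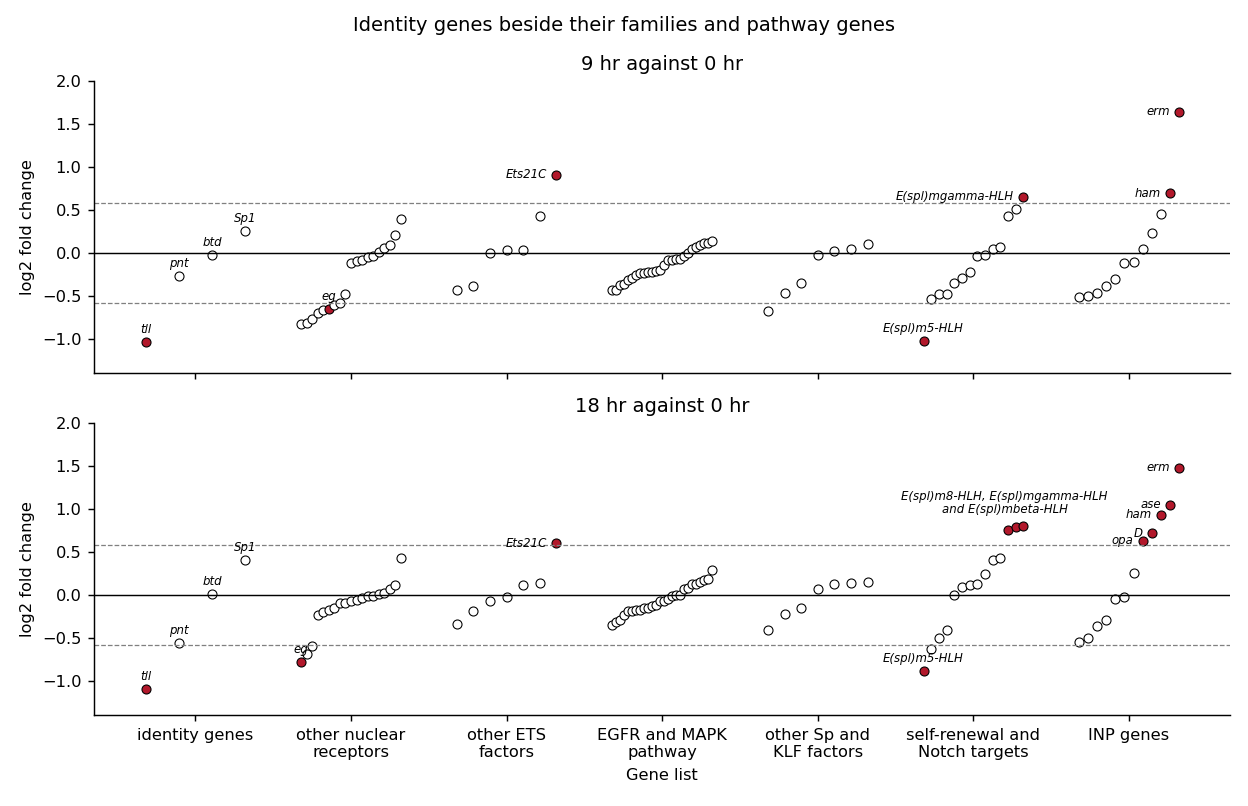
Log2 fold change at 9 hr (top) and 18 hr (bottom) against 0 hr for the 4 genes and for each tested gene of 6 lists, sorted within a list, with called genes filled and named and dashed lines at a 1.5-fold change. *tll* (-1.04 and -1.10) is below each of the other nuclear receptor genes, and the filled points of the INP list, led by *erm* (1.64 and 1.49), are above 0.

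The genes whose profiles lay closest to each of the 4 were found from the root mean square difference of log2 CPM, centred on each gene's mean, over the 9 libraries and 7132 genes of at least 10 CPM. Nearest to *tll* were *Tmhs* (0.141), the long non-coding RNA *CR31386* (0.196), *CG12496* (0.208), *mnd*, an amino acid transporter gene (0.221), and *DNaseII* (0.232). For *pnt* the nearest were *CG17739* (0.0849), *CG42337* (0.11), *fw* (0.114), *Hs3st-B* (0.119) and *Rab32* (0.12). The list for *btd* held *CG32333* (0.0681), *CG30183* (0.0682), *dpn* (0.0719), *Myo95E* (0.0818) and *tty* (0.0839). *Sp1* was closest to *Optix*, a homeobox gene of the optic lobe marker list (0.0573), *rgr* (0.0601), *PNUTS* (0.0711), *CG7099* (0.0837) and *Rack1* (0.0898). None of the 4 was among the nearest genes of another. Between them the difference was smallest for *btd* and *Sp1* (0.19) and largest for *tll* and *Sp1* (0.674). These values describe the same 9 libraries and share the library-wide deviations given above.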

How the data were processed

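Poly-A libraries of pooled brains were sequenced as read pairs. The authors deposited whole-number counts per gene without normalization, made on dm6. The submitters' processing notes name FastQC 0.11.3, HISAT2 2.1.0, StringTie 1.3.4 and DESeq2 1.20.0. The gene annotation used for counting and the use of strand are not given in the sources used here. Genes were placed by symbol on the Ensembl annotation of dm6. Samples were grouped by the time points of the labels, and nothing else was used to group them.

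Counts were analysed in R 4.3.3 with edgeR 4.0.16 (filterByExpr, TMM, glmQLFit and glmQLFTest) in 1 model of all 9 libraries, with Benjamini-Hochberg adjustment over 10799 genes. A gene was called at adjusted p below 0.05 and at least 1.5-fold. Standard errors were the log2 fold change over the square root of F, and 95% intervals used the t distribution of the fit. An exact permutation test of 3 libraries against 3 cannot go below p = 0.1, so none is given. The script was tested on simulated data.

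Replicates 2 and 3 of the 9 hr group had a median chi-square of 0.812 per gene over 8163 genes, under the 0.91 that sampling of read pairs gives, and other pairs had 2.03 to 6.26. The 0.91 holds if each read pair was counted as 2 reads, which the sources used here do not state, and single counting gives 0.455. For genes with the most counts the median was 2.81 in this pair, against 24.8 to 102 in the others. Single genes still differed, such as *ATPsynCF6* at 80.2 and 145 CPM in replicates 2 and 3. As the closest pair, the 2 libraries were counted as 1 sample in means and SDs, while the model kept both. The libraries are given as biological triplicates.

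The 4 genes and all lists were chosen with earlier results of these data known. Genes named are the 4, genes of reported lists, their nearest annotated neighbours and, for each of the 4, the 5 genes with the closest profile. Alternatives were RLE, upper-quartile and no scaling, DESeq2 1.42.0, other filters, the compared libraries alone, a replicate block, the 9 hr pair summed, a test against a 1.5-fold change and each library left out.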

Additional observations from a re-analysis of the deposited data

How the results depend on the processing

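Under 19 alternatives, *tll* kept its direction at both times and its call in 18. In the test against a 1.5-fold change, its log2 fold changes of -1.044 and -1.096 had adjusted p of 0.0845 and 0.111. Leaving out 1 library gave -1.15 to -0.99 at 9 hr and -1.18 to -1.01 at 18 hr. *pnt* stayed below and *Sp1* above 0 in all 19 at both times, and neither was called in any. At 18 hr against 0 hr *pnt* passed the p threshold in 6 of 19 and *Sp1* in 5 of 19, and at 9 hr in 2 and 4. *btd* ran from -0.07 to 0.04 at 9 hr and from -0.11 to 0.17 at 18 hr.

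The number of genes called at 9 hr against 0 hr was 398, and became 201 with the 9 hr pair summed, 25 in the test against a 1.5-fold change and 187 to 453 with 1 library left out. At 18 hr against 0 hr it was 90, and became 203 with DESeq2, 25 with the compared libraries alone, 49 with the pair summed, 7 in the test against a 1.5-fold change and 35 to 121 with 1 library left out. At 18 hr against 9 hr 1 gene was called (1171 at an unadjusted p under 0.05), 35 with DESeq2, 0 with the compared libraries alone or in the test against a 1.5-fold change, and 0 to 4 with 1 library left out. Of 1710 counts over the gene lists, 92 moved by more than 1.5 times. The cause of these shifts was not tested.

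The replicate numbers were not seen to pair the samples: correlations of same-numbered deviations ran from -0.253 to 0.349, with 1 of 9 above 0.1. With 3 libraries per group, this check cannot show that there was no pairing. With the replicate number as a block, 50 genes were called at 18 hr against 0 hr and 0 at 18 hr against 9 hr, and *tll* had -1.04 (adjusted p = 0.0128) and -1.09 (adjusted p = 0.0346).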
